A study of Mus musculus with 6 samples.

Results

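Cyclic nucleotide phosphodiesterases are the enzymes that end cAMP and cGMP signals. The members described here are 8 genes (Pde3a, Pde3b, Pde4a, Pde4b, Pde4d, Pde7a, Pde8a and Pde10a) of the 21730 genes with at least 1 read in the series. They were chosen by gene symbol, as the transcripts that the GENCODE M21 annotation gives to these genes, and the rule uses no threshold on a measured value. The tissue was interscapular brown fat of male wild type C57BL/6N mice, 20 weeks old. The 3 cold mice (numbered 4, 11 and 15) had spent 24 h alone in a cage at 4 °C. The 3 control mice (2, 9 and 14) carry the label ctrl, and the general housing temperature was 22 to 24 °C. Whether control mice were also housed singly is not stated, so cold and single housing cannot be told apart. PolyA RNA of each mouse was read as direct cDNA, without amplification, on 2 nanopore flow cells. The summed tables held 1829442 to 2238056 reads per control mouse and 1657985 to 2082203 per cold mouse.

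Phosphodiesterases hydrolyse the cyclic phosphate bond of cAMP, of cGMP or of both. In brown fat, noradrenaline raises cAMP through beta-adrenergic receptors, protein kinase A then drives lipolysis and heat production, and phosphodiesterases set how far and how long the signal runs. PDE3B is known as the enzyme through which insulin restrains lipolysis in fat cells, and PDE4 enzymes are cAMP-specific and are themselves phosphorylated by protein kinase A.

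The tissue label was checked first. The summed level of 6 brown adipocyte markers was 26682 to 29773 CPM (counts per 1000000 reads, scaled by the TMM method) in control mice and 36464 to 38314 CPM in cold mice. Most of that sum was Ucp1 (mean 10666 to 13810 CPM) and Fabp4 (13731 to 19567 CPM), both called higher. Adipoq was called lower (581 to 398 CPM, log2 fold change -0.54, adjusted p = 4.6e-05, edgeR), and Cidea, Plin1 and Adrb3 were not called. The Schwann cell and nerve markers Th and Nefl had 0 reads. Summed markers of macrophages (39.1 to 54.4 CPM in control, 47.8 to 72.2 in cold) overlapped between groups. So did those of Schwann cells (127 to 162 CPM and 112 to 136 CPM). The fibroblast and preadipocyte sums overlapped too (229 to 276 CPM and 200 to 256 CPM), but their genes did not move together. The collagens Col1a1 (log2 fold change -0.71, adjusted p = 0.0128, edgeR) and Col3a1 (-0.72, adjusted p = 0.00028, edgeR) fell, Dcn averaged 100 CPM without cold and 128 CPM with it, and the median of the list was -0.70. Endothelial markers did not overlap (244 to 251 CPM in control, 289 to 296 in cold), nor did smooth muscle and pericyte markers (194 to 223 CPM in control, 162 to 171 in cold). In each list 1 gene was called, Kdr higher (56.4 to 87.2 CPM) and the pericyte gene Rgs5 lower (128 to 77.3 CPM). The other tested endothelial genes did not pass and did not move together. Their log2 fold changes were 0.42 (Pecam1), 0.13 (Cdh5), 0.03 (Egfl7) and -0.42 (Tie1). The smooth muscle gene Acta2 went the other way from Rgs5, at 23.5 against 32.4 CPM in the cold, and did not pass (adjusted p = 0.0553, edgeR). Skeletal muscle markers ranged from 56.7 to 392 CPM in control mice and from 172 to 2119 CPM in cold mice, with the highest value in cold mouse 15. The share of reads from the mitochondrial genome was 29.7 to 32.5% in control mice and 27.6 to 29.0% in cold mice. The part of these differences in the results below was not tested, beyond fits with the muscle signal as a covariate and without the mitochondrial genes.

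All 8 enzymes share a catalytic motif with histidine and aspartate residues of the active site. Its 36 coding bases are shown, from the most-read transcript of each gene, because they mark what the family has in common and where the members part. Capitals mark the codons of the first histidine, the aspartate beside it and the next histidine.
Pde3a: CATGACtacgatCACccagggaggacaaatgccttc
Pde3b: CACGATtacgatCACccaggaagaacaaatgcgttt
Pde4a: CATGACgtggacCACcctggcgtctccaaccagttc
Pde4b: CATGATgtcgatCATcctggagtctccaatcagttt
Pde4d: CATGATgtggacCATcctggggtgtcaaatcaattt
Pde7a: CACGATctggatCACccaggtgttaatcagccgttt
Pde8a: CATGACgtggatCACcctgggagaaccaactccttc
Pde10a: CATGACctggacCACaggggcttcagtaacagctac
Pde3a and Pde3b were identical at 30 of the 36 bases, as were Pde4b and Pde4d. Pde4a matched Pde4b at 29 and Pde4d at 28. Pde3b and Pde10a were the pair with the fewest identical bases, 15 of 36.

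The members together held 3017 reads, which is 0.0256% of all reads in the 6 libraries. Of 71 annotated transcripts, 43 had a read and 13 had at least 10. Reads were concentrated in 4 genes, Pde3b with 1540, Pde4a with 602, Pde4d with 367 and Pde8a with 300. Pde3a had 94 reads, Pde4b 47, Pde7a 44 and Pde10a 23. With so few reads, the last 3 did not pass the filter on low counts, and 5 members were tested. A level of 3 reads corresponded to 1.34 to 1.81 CPM, so that Pde10a lay near the detection floor in every mouse but cold mouse 4.

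Per kilobase of the most-read transcript, the control mice ranked Pde3b first (19.6 ± 3.04 CPM per kb, SD, n = 3). Pde4a followed with 9.09 ± 0.280, Pde8a with 7.71 ± 1.27 and Pde4d with 5.17 ± 1.38 CPM per kb. Pde4b (0.686 ± 0.135), Pde3a (0.661 ± 0.196) and Pde7a (0.617 ± 0.173) formed a lower tier, and Pde10a was last with 0.158 ± 0.0568 CPM per kb. In control mice the ranges of Pde4a and Pde8a overlapped, as did those of Pde8a and Pde4d, and those of Pde4b, Pde3a and Pde7a. In the cold mice the first 4 places no longer overlapped. Pde3b stood at 18.6 to 21.8, Pde4a at 12.5 to 13.9, Pde4d at 8.84 to 10.8 and Pde8a at 5.67 to 6.13 CPM per kb, so Pde4d stood above Pde8a in every cold mouse. Part of this order depends on the division by length, and whether counts rise with length here was not tested. Undivided, Pde3a (8.13 CPM, most-read transcript 12302 bases) averaged above Pde7a (3.88) and Pde4b (2.95) in control mice. The undivided control ranges of Pde4a (40.8 to 43.3 CPM) and Pde8a (24.5 to 34.1 CPM) did not overlap.

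**Figure D1:**
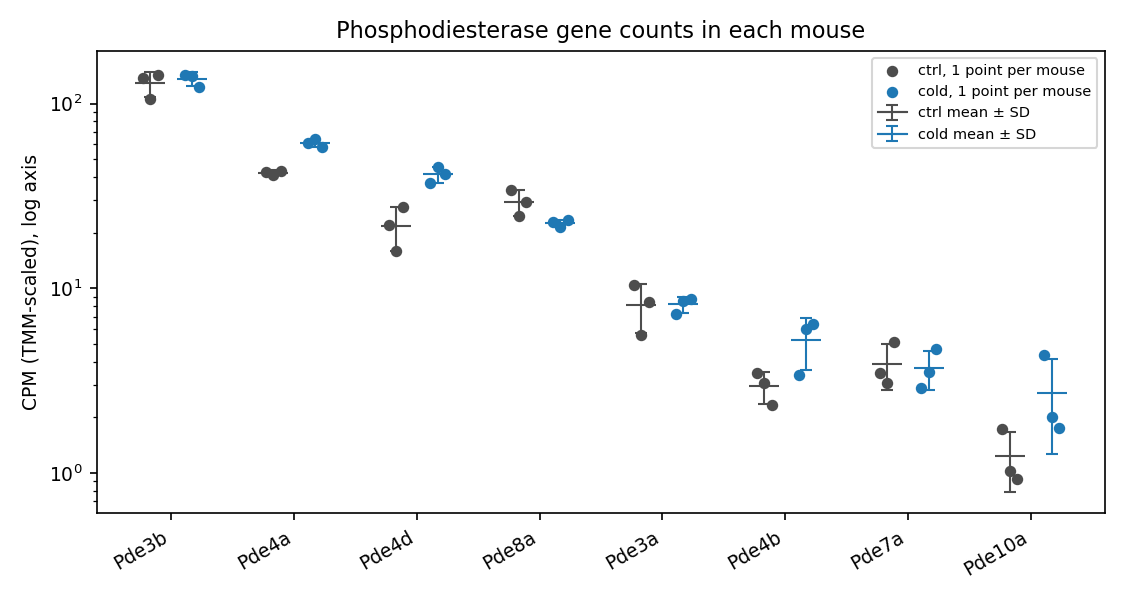
Normalised gene counts of the 8 phosphodiesterases (CPM, log axis) in each control mouse (grey) and cold mouse (blue), with the mean and SD of the 3 mice as bars. The cold points of Pde4a and Pde4d lie above every control point, those of Pde8a below every control point, and those of Pde3b and Pde3a among them.

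The question the design puts to these genes is whether a day of cold changed their RNA. Pde4a and Pde4d rose in the cold by 1.45-fold and 1.89-fold, while Pde3b, the member with most reads, stayed within the spread between mice. Of the 5 members tested, 2 were higher and 0 lower at an adjusted p under 0.05 (edgeR quasi-likelihood test, adjusted over all 8684 genes). Among all genes tested, 9.75% were called higher, 9.77% lower and 19.5% in either direction. At an unadjusted p under 0.05, 1 member was lower (Pde8a), and DESeq2 also called 0 lower. The median log2 fold change of the 5 tested members was 0.08, beside 0.00 over all tested genes. In bulk tissue, fewer cells that express a gene and less of its RNA per cell cannot be told apart.

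Of the PDE4 genes tested, Pde4d (chr13:108449948-109953461 on the plus strand of GRCm38) rose more by estimate, though its difference from Pde4a was not tested. Pde4d measured 22.0, 15.8 and 27.5 CPM in control mice 2, 9 and 14, from 38, 31 and 59 reads. In cold mice 4, 11 and 15 it measured 37.2, 45.6 and 41.3 CPM, from 77, 91 and 71 reads. Every cold mouse lay above every control mouse, and control mouse 14 was the highest of its group. The log2 fold change was 0.92 (SE 0.18, adjusted p = 0.000755, edgeR). The estimates of the 2 flow cells were apart for this gene, and the difference between them was not tested. On flow cell 1 alone the log2 fold change was 1.06 (adjusted p = 0.00144, edgeR), and on flow cell 2 alone it was 0.58 with an adjusted p of 0.166, from 117 reads against 250. On flow cell 2, unscaled levels were 13.6, 20.8 and 23.2 CPM in control and 22.1, 37.4 and 34.5 CPM in cold mice, so there the groups overlapped.

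Pde4a was the PDE4 gene with most reads. It measured 42.8, 40.8 and 43.3 CPM in the control mice and 60.9, 64.6 and 58.2 CPM in the cold mice. Every cold mouse lay above every control mouse, and the SD was 1.30 CPM among control mice and 3.21 among cold mice. The log2 fold change was 0.53 (SE 0.12, adjusted p = 0.00315, edgeR). It passed on flow cell 1 alone (0.44, adjusted p = 0.0426, edgeR) and on flow cell 2 alone (0.70, adjusted p = 0.0197, edgeR). DESeq2 gave 0.55 with an adjusted p of 0.0783, which does not pass. Pde4b (chr4:102087543-102607259, plus strand), the third PDE4 gene here, was not tested at its depth. It had 6, 6 and 5 reads in the control mice and 7, 12 and 11 in the cold mice, or 3.47, 3.06 and 2.33 CPM against 3.38, 6.01 and 6.40 CPM. Cold mouse 4 lay inside the control range.

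**Figure D2:**
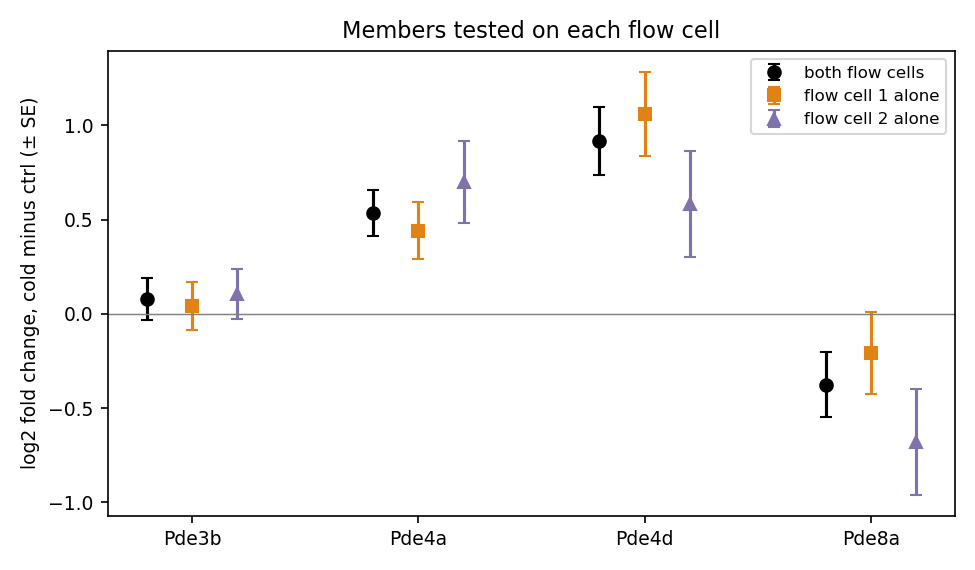
Log2 fold change of 4 phosphodiesterases, cold minus control, with its SE, fitted on both flow cells together and on each alone. Pde4a and Pde4d lie above 0 in all 3 fits, Pde8a below 0 in all 3, and Pde3b within 1 SE of 0 in all 3.

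Of the PDE3 genes, which code for enzymes that cleave cAMP and are inhibited by cGMP, neither passed the test. Pde3b (chr7:114415281-114539251, plus strand) measured 138, 106 and 142 CPM in the control mice and 144, 141 and 122 CPM in the cold mice. Its groups overlapped, and its log2 fold change was 0.08 (SE 0.11, adjusted p = 0.682, edgeR). The sign of that value turned to -0.051 without control mouse 9, the lowest of the 6. Pde3a (chr6:141249269-141507448, plus strand), better known from heart, platelets and oocytes, measured 10.4, 5.61 and 8.38 CPM in control and 7.25, 8.52 and 8.73 CPM in cold mice. Its log2 fold change was 0.01 (SE 0.30, adjusted p = 0.981, edgeR), and it turned negative without control mouse 9, cold mouse 11 or cold mouse 15. The exons of Pde3a share 741 bases with the antisense gene Gm28523, which had 12 reads, and whether counting used strand is not given in the sources used here.

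Pde8a (chr7:81213596-81334533, plus strand), a cAMP-specific enzyme of high affinity, measured 34.1, 24.5 and 29.3 CPM in control and 22.7, 21.5 and 23.3 CPM in cold mice. All cold mice lay below all control mice. This non-overlap was seen in 17.8% of all tested genes, and the corresponding one with cold above, which Pde4a and Pde4d showed, in 17.3%. The log2 fold change of Pde8a was -0.37 (SE 0.17, adjusted p = 0.143, edgeR), and no alternative fit brought it past the threshold. Pde7a (chr3:19223108-19311322, minus strand), also cAMP-specific, had 6, 6 and 11 reads in control and 6, 7 and 8 in cold mice. At 3.47, 3.06 and 5.12 CPM against 2.90, 3.51 and 4.66 CPM, its groups overlapped. Pde10a (chr17:8525372-8986648, plus strand), which cleaves both cyclic nucleotides and is known from the striatum, had 3, 2 and 2 reads in control mice and 9, 4 and 3 in cold mice. Its cold mice measured 4.35, 2.00 and 1.75 CPM and its control mice 1.74, 1.02 and 0.931 CPM, so the groups were apart by less than 1 read. No difference in Pde4b, Pde7a or Pde10a was detectable at this depth: with no filter on low counts their adjusted p values were 0.329, 0.922 and 0.362 (edgeR).

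Relative to PDE3, PDE4 counts were higher in every cold mouse than in any control mouse. Summed PDE4 counts were 68.3, 59.7 and 73.1 CPM in the control mice and 101, 116 and 106 CPM in the cold mice. Summed PDE3 counts were 149, 111 and 150 CPM in control and 151, 150 and 131 CPM in cold mice. The ratio of PDE4 to PDE3 counts was 0.459, 0.537 and 0.486 in control and 0.673, 0.776 and 0.809 in cold mice, with no overlap. As a share of all reads on the 8 genes, Pde3b was 53.9% ± 0.958 (SD, n = 3) in control and 48.3% ± 2.50 in cold mice. Pde4d made up 9.04% ± 1.40 and 14.7% ± 1.35, Pde4a 18.0% ± 2.16 and 21.8% ± 0.238, and Pde8a 12.3% ± 0.994 and 8.04% ± 0.692. Of the 8 shares compared, in each of these 4 the groups did not overlap and the exact two-sided permutation p was 0.1, the smallest that 3 mice against 3 can give. Adjusted over the 8 members, the exact permutation p was 0.2 in each of the 4. The shares rest on the same counts as the gene tests above. The share of Pde3a was 3.37% in control and 2.92% in cold mice (exact permutation p = 0.5). The shares of 1 mouse sum to a whole, so a higher Pde4d share lowers the others.

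PDE4 genes are known for several promoters that give long forms, which carry a regulatory site for protein kinase A near the start, and short forms, which lack it. The 15 coding bases of that site are shown because they separate the forms that the reads were assigned to.
Pde4a: cgccgagaatccttc
Pde4b: cgcagggagtcgttc
Pde4d: cgccgggagtccttc
Among transcripts annotated as protein coding, those of Pde4a with the site held 225 reads in control and 327 in cold mice, and the transcript without it 4 and 7. For Pde4b, transcripts with it held 13 and 28 reads and those without 4 and 2. Pde4d was the other way round. Its transcripts with the site held 15 and 12 reads, and those without held 105 in control and 219 in cold mice. Pde4d-206, which lacks the site, has 8 reads and is not in these sums, as it is annotated for nonsense-mediated decay. The sums follow the transcript each read was assigned to. In each PDE4 gene here, most reads were on the transcript whose annotated 3′ end lies farthest along the gene. A read covering only that end would be counted there wherever its RNA began. The split by form was not separated from this.

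Most Pde4d reads, 317 of 367, were on 1 short-form transcript, Pde4d-207 (chr13:109903106-109953461 on the plus strand of GRCm38, 10 exons), which codes without the protein kinase A site. Most Pde4a reads, 431 of 602, were on the long-form transcript Pde4a-202 (chr9:21165714-21213248, plus strand, 15 exons), and 121 were on Pde4a-203 (chr9:21184103-21211627, plus strand), a long form that starts further along the gene. The first 30 coding bases of each, with the start codon in capitals, show that their coding sequences begin differently.
Pde4d-207: ATGaaggagcagccctcatgtgcgggcacc
Pde4a-202: ATGgagcctccggccgccccctcggagagg
Pde4a-203: ATGcgctccagtgcagcaccccgggcccgg

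Pde4d-207 had 24, 24 and 55 reads in the control mice and 68, 82 and 64 in the cold mice. Its log2 fold change was 1.07 (SE 0.21, adjusted p = 0.000867 over 11699 transcripts, edgeR). Pde4a-202 had 55, 53 and 60 reads in control and 98, 90 and 75 in cold mice, a log2 fold change of 0.65 (SE 0.15, adjusted p = 0.00277, edgeR). Both were above the control mice in every cold mouse. Pde4a-203, with 14, 22 and 21 against 19, 30 and 15 reads, had a log2 fold change of 0.17 and did not pass (adjusted p = 0.757, edgeR). Of the members' 6 tested transcripts, 2 were thus called higher and 0 lower by edgeR, beside 8.33% higher, 7.95% lower and 16.3% in either direction among all transcripts. At an unadjusted p under 0.05, 1 was lower (Pde8a-201), and DESeq2 called 0 lower.

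**Figure D3:**
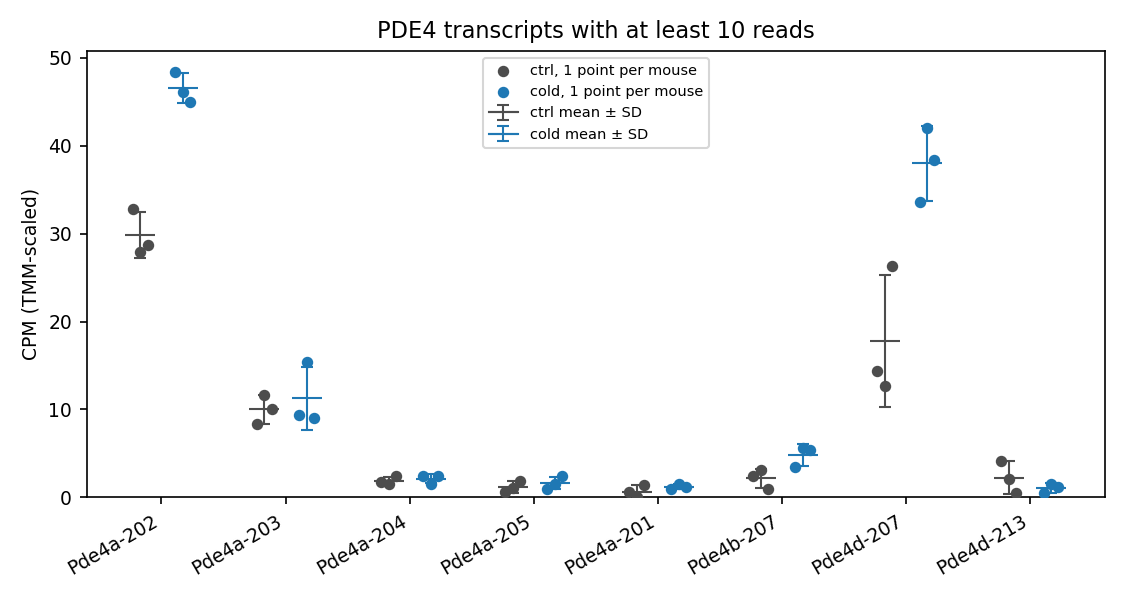
Normalised counts (CPM) of the PDE4 transcripts with at least 10 reads, 1 point per mouse with mean and SD of the 3 mice per group. Pde4a-202 and Pde4d-207 carry most reads, and their cold points lie above every control point, while those of Pde4a-203 overlap the control points.

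Merging transcripts whose annotated starts lie within 100 bases left nearly the same reads in each unit, so the values below give no separate support. The start of Pde4a-202 holds that transcript alone, with 431 reads in both. That of Pde4d-207 holds 325 reads, beside 317 on the transcript. The start of Pde4a-202 had a log2 fold change of 0.65 (adjusted p = 0.00231, edgeR) and the start shared by Pde4a-203 and Pde4a-205 one of 0.20 (adjusted p = 0.674, edgeR). The start shared by Pde4d-207 and Pde4d-206 had one of 1.06 (adjusted p = 0.000822, edgeR). Of the members' 6 tested start groups, 2 were thus called higher and 0 lower by edgeR, beside 8.96% higher, 8.69% lower and 17.7% in either direction among all start groups. At an unadjusted p under 0.05, 1 was lower (that of Pde8a), and DESeq2 called 0 lower. The difference between the Pde4a starts did not itself pass a test. Relative to the whole gene, Pde4a-202 moved by 0.08 and Pde4a-203 by -0.25 on the log2 scale, with unadjusted p of 0.538 and 0.201 and adjusted p values near 1 (edgeR diffSpliceDGE). In that test of usage, 0.195% of 2568 genes were called over transcripts and 0.254% of 1573 genes over starts. Pde4a was the only member with more than 1 tested transcript, so usage was not tested in the others.

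As a share of the gene's reads, Pde4d-207 was 63.2% in control mouse 2 (95% Wilson interval 47.3 to 76.6%), 77.4% in control mouse 9 (60.2 to 88.6%) and 93.2% in control mouse 14 (83.8 to 97.3%). It was 88.3%, 90.1% and 90.1% in the cold mice, which lies inside the control range. The other Pde4d transcript with at least 10 reads was the long Pde4d-213 (chr13:109632780-109951364, plus strand), with 7, 4 and 1 reads in control and 1, 3 and 2 in cold mice. These intervals and the detection floor cover counting error only.

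The choice of transcript has a limit in the annotation. In all 8 genes, the most-read transcript was the one whose annotated 3′ end lies farthest along the gene. The last exon of Pde4d-207 holds 1987 bases that are in no other transcript of the gene, that of Pde4a-202 1621, that of Pde7a-202 1574 and that of Pde4b-207 1398. A read that covers only such a stretch would be counted on that transcript wherever its RNA began, and which bases each read covered is not analysed here. The counts per gene do not depend on this, while the sums of PDE4 forms with and without the protein kinase A site can.

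**Figure D4:**
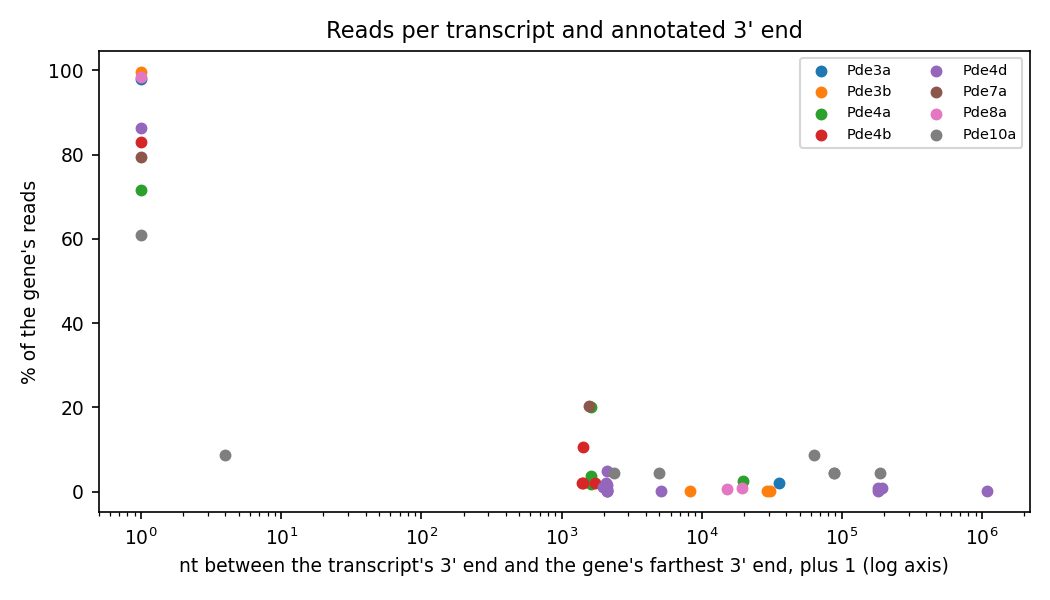
Share of each gene's reads on each of its transcripts (vertical axis, %) against the distance in nucleotides from the transcript's annotated 3′ end to the farthest 3′ end of the gene, plus 1 (log axis). In every gene the point with the highest share, from 60.9% in Pde10a to 99.7% in Pde3b, lies at the left edge, where the distance is 0.

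The 250 bases before the Pde4a starts are shown because Pde4a-202 was called higher and Pde4a-203 was not. The difference between these transcripts did not itself pass the usage test above. Pde4a-203 has 0 exon bases that are in no other transcript of the gene, and Pde4a-202 has 2140. Their counts may therefore not measure the starts apart. The windows are RefSeq promoters of GRCm38.p6, plus strand. The first, at chr9:21165464-21165713, lies before Pde4a-202, and the other, at chr9:21183851-21184100, before Pde4a-205 and Pde4a-203. Capitals mark the short site of the cAMP response element, TGACG, here on the reverse strand and 50 bases before the start.
Pde4a-202: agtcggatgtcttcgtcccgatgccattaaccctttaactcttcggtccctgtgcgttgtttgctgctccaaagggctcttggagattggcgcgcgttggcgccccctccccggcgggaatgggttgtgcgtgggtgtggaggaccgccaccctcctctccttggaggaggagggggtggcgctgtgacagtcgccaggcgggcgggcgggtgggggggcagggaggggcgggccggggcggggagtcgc
Pde4a-203: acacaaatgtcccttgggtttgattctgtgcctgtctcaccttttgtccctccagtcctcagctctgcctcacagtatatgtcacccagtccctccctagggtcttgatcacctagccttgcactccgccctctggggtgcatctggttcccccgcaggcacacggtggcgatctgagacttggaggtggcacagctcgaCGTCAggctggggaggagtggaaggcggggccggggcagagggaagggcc
The full element TGACGTCA, the C/EBP site TTGCGCAA, the E-box CACGTG and an NRF1 site were searched on both strands and were in neither window. The short site, which the full element contains, is found in 17.8% of 32851 promoter windows of this length, and the full element in 1.55%. The Pde4a-202 window is 68.8% G and C. RefSeq windows were matched for Pde4a, Pde4b, Pde4d, Pde8a and Pde10a, and that of Pde4d belongs to another start than Pde4d-207. The short site was also in the Pde8a window, 84 bases before its RefSeq start. It was in the Pde4b window nearest to Pde4b-205 too, 34 bases before the RefSeq start.

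By likeness of profile, the genes nearest to Pde3b over the 6 libraries, among 3176 tested genes of at least 30 CPM, were Prex2 (root mean square distance 0.0323 on the log2 scale), Sf3b2 (0.0490) and Kpnb1 (0.0608). Those nearest to Pde4d were Lpgat1 (0.0867), Ackr3 (0.125) and BC028528 (0.127).

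Of the other 16 phosphodiesterase genes, 4 passed the filter, 1 was called higher and 1 lower, and the median log2 fold change was 0.10. Among all tested genes, 9.75% were called higher, 9.77% lower and 19.5% in either direction. Pde7b, a cAMP-specific relative of Pde7a, measured 16.8, 8.68 and 21.9 CPM in control and 37.7, 40.1 and 43.1 CPM in cold mice (log2 fold change 1.33, SE 0.22, adjusted p = 0.00021, edgeR). It rose more than either PDE4 gene by estimate, though that difference was not tested. Pde1a, a calmodulin-stimulated enzyme, fell from 12.2, 15.3 and 16.8 CPM to 7.25, 7.51 and 3.49 CPM (log2 fold change -1.25, SE 0.28, adjusted p = 0.00299, edgeR), and with DESeq2 its adjusted p was 0.0746. Pde2a and Pde6d were tested and did not pass.

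On the side that makes cAMP, 10 of 17 genes were tested, with a median log2 fold change of 0.11. Of these 10, 2 were called higher and 1 lower, beside 9.75% and 9.77% of all tested genes. Adcy3, an adenylyl cyclase, rose from 76.3 ± 22.3 to 540 ± 23.6 CPM (SD, n = 3 each, adjusted p = 5.2e-05, edgeR), and Gnas, the stimulatory G protein subunit, from 2280 ± 173 to 3094 ± 94.2 CPM (adjusted p = 5.1e-05, edgeR). These are sums per gene, and which Adcy3 transcripts held the reads was not examined here. Adcy10, the soluble cyclase, fell by 1.06 on the log2 scale with an adjusted p of 0.0493 (edgeR), and 7 of 11 alternatives did not call it. Among the proteins that read cAMP, 8 of 14 were tested, and the median was 0.29. Beside 9.75% of all tested genes called higher, 2 of the 8 were called, both higher. These were the protein kinase A regulatory subunits Prkar1a, with a log2 fold change of 0.36 (adjusted p = 0.00765, edgeR), and Prkar2a with 0.66 (adjusted p = 0.0343, edgeR). Prkar1a was not called under 3 of 14 alternatives and Prkar2a under 7 of 14.

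In the list for cGMP production and effectors, 4 of 11 were tested and 1 was called higher, beside 9.75% of all tested genes. It was Npr3, the clearance receptor for natriuretic peptides, which rose from 58.7 ± 13.0 to 187 ± 3.18 CPM (SD, n = 3 each, adjusted p = 2.5e-09, edgeR). Npr1, Npr2 and Gucy1b1 were tested and not called, with log2 fold changes of 0.19, -0.67 and -0.18. The median was 0.01. Of 17 genes whose proteins are reported to bind a PDE3 or PDE4 enzyme, 11 were tested. Beside 9.75% of all tested genes called higher, 1 of the 11 was called, also higher. That was Abhd15, known as a partner that stabilises PDE3B, with 12.2, 10.7 and 15.8 CPM in control and 25.6, 29.0 and 29.1 CPM in cold mice. Its log2 fold change was 1.10 (SE 0.20, adjusted p = 0.000369, edgeR), and the median of the list was 0.05.

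All 10 genes of the route from insulin to PDE3B were tested, 4 were higher and 1 lower, and the median log2 fold change was -0.16. The shares over all tested genes were 9.75% higher and 9.77% lower. Irs2, a substrate of the insulin receptor, rose from 4.68 ± 2.51 to 17.9 ± 9.24 CPM (SD, n = 3 each, adjusted p = 0.0186, edgeR). Without control mouse 2 its adjusted p was 0.0979, and without control mouse 9 it was 0.0673. Pdpk1, the kinase upstream of Akt, had a log2 fold change of 0.81 (adjusted p = 0.00354, edgeR), the receptor Insr one of 0.49 (adjusted p = 0.0254, edgeR) and Akt1 one of 0.45 (adjusted p = 0.0422, edgeR). Insr was not called under 7 of 14 alternatives and Pdpk1 under 2 of 14. Akt1 was called under 7 of 14 and had a value of -0.075 on flow cell 2. The gene called lower was Akt2, the main Akt of fat cells, from 169 ± 10.5 to 126 ± 7.64 CPM (adjusted p = 0.00202, edgeR), and it is named here after its value was seen. So is Pik3r1, a regulatory subunit of phosphoinositide 3-kinase, which had a log2 fold change of -2.00, the largest of the list, and did not pass (adjusted p = 0.074, edgeR). It measured 96.6, 86.2 and 34.4 CPM in control and 15.0, 20.5 and 18.1 CPM in cold mice, with no overlap.

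Of 14 early genes known to follow cAMP signals, 11 were tested and 4 were called, all higher, with a median log2 fold change of 0.47. The share called higher over all tested genes was 9.75%. Atf3 had a log2 fold change of 2.85 (adjusted p = 0.000141, edgeR), Nr4a1 one of 2.53 (adjusted p = 0.0306, edgeR) and Ppargc1a one of 2.33 (adjusted p = 1.2e-11, edgeR). Nr4a2 had one of 0.76 (adjusted p = 0.046, edgeR) and was not called under 7 of 13 alternatives, nor Nr4a1 under 4 of 14. Control mouse 9 held 22 of the 29 control reads of Nr4a1, and without it the log2 fold change of Nr4a1 was 3.95.

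**Figure D5:**
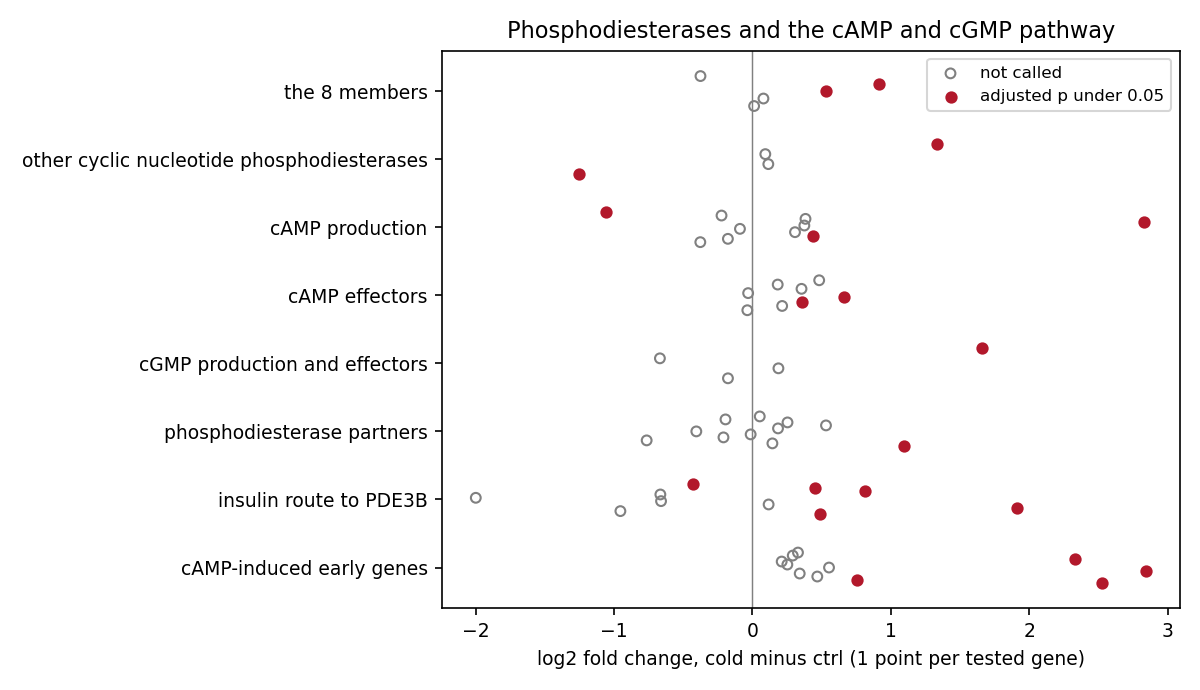
Log2 fold change, cold minus control, of each tested gene among the 8 phosphodiesterases and in 7 lists of related genes, with genes at an adjusted p under 0.05 filled in red. Pde4a and Pde4d, at 0.53 and 0.92, are the filled points of the members, and the filled points farthest to the right are Adcy3 and Atf3.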

How the data were processed

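PolyA RNA of 6 mice was read by nanopore direct cDNA sequencing, and the deposited tables give raw read counts per transcript for each of 12 runs (per the file headers, 2 flow cells per mouse). The submitters' processing notes name minimap2 and GRCm38, and how reads that match several transcripts were assigned is not given in the sources used here. The labels' extraction protocol names another fat depot, while the tissue labels say interscapular brown fat, which was followed.

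Counts of both flow cells were summed per mouse and joined to GENCODE M21 (59371 of 59543 transcripts, the other 172 holding 0.0836% of reads). Genes, transcripts and groups of starts within 100 bases were tested with edgeR 4.0.16 (TMM, filterByExpr, robust quasi-likelihood) in R 4.3.3, called at an adjusted p under 0.05 over all features. DESeq2 1.42.0, each flow cell, each mouse left out, other filters and scalings, and a muscle covariate were alternatives. The scripts were tested on simulated data.

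Depth limits the members to 23 to 1540 reads each. All 8 members, their 2 most-read transcripts of at least 10 reads, every called one and up to 4 called genes per list are named, by size of fold change, with the 3 genes nearest in profile. The members and lists were chosen with earlier results of these data known. The p-values measure the spread between these mice only.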

Additional observations from a re-analysis of the deposited data

How the results depend on the processing

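Pde4a and Pde4d kept their direction under every alternative run, with log2 fold changes of 0.44 to 0.70 and 0.58 to 1.13. Their calls held when any mouse was left out, with the muscle covariate (adjusted p = 0.0208 and 0.0149, edgeR) and without the mitochondrial genes. Among member genes, 1 instead of 2 was called higher on flow cell 2 alone and with DESeq2. Among their transcripts 1 was called higher on flow cell 1 alone, 1 on flow cell 2 alone and 1 with DESeq2, and likewise among their start groups. The transcript Pde4a-202 gave adjusted p = 0.0595 on flow cell 1 (edgeR) and 0.0806 with DESeq2, and Pde4d-207 gave 0.187 on flow cell 2 (edgeR). A flow cell alone holds fewer reads; the cause was not tested otherwise. Values near 0 changed sign. With 1 mouse left out, log2 fold changes ran from -0.20 to 0.20 for Pde3a, -0.12 to 0.19 for Pde3a-201 and -0.12 to 0.20 for its start. They ran from -0.051 to 0.16 for Pde3b, -0.057 to 0.14 for Pde3b-201 and -0.051 to 0.15 for its start, each lowest without control mouse 9. Those of Pde4a-203 ran from -0.12 to 0.30 and of its start from -0.049 to 0.35, both lowest without cold mouse 11. Pde3a was also below 0 without cold mouse 11 (-0.02) or 15 (-0.03), and Akt1 was -0.075 on flow cell 2. Over all genes edgeR called 847 higher and 848 lower and DESeq2 463 and 346, while flow cell 2 alone gave 429 and 408 and the muscle covariate 574 and 519. No paired analysis was possible because the mouse numbers differ between the groups. Depth limits Pde4b, Pde7a and Pde10a, which were not tested.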
